A study of Mus musculus with 4 samples.

Results

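The genes described here belong to the p53 axis and to the inhibitors of cyclin-dependent kinases (CDKs), measured in mouse L cell fibroblasts that did or did not overexpress melanotransferrin. They were chosen by name from a list of 30 genes that holds Trp53 itself, its regulators Mdm2 and Mdm4, genes that p53 induces, and the CDK inhibitors. All probe sets that the platform annotation assigns to exactly 1 of these genes were taken. This gave 52 probe sets of 28 genes, out of 34945 probe sets of 18194 genes with 1 gene on the array. The annotation used here assigned no probe set to Trp53 or Bax alone, so the expression of these 2 genes was not analysed here. Of the 28 genes, 13 had 1 probe set and 15 had several, up to 4.

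The overexpressing lines were 2 clones, MTf 4 and MTf 6, of the LMTK- line stably transfected with the expression vector pCI-neo carrying the mouse melanotransferrin cDNA. Their controls were 2 lines, vector 1 and vector 2, of the same LMTK- cells stably transfected with pCI-neo alone, so all 4 lines carry the vector. LMTK- cells are L cells, mouse fibroblasts, selected for lack of thymidine kinase, and pCI-neo is a mammalian expression vector with a neomycin resistance gene. Each line was hybridised once to the Affymetrix Mouse Genome 430 2.0 Array, each MTf line is a single clone, and whether vector 1 and vector 2 were cloned is not stated. The p-values therefore measure the spread between 4 arrays, which may in part be technical.

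The transcription factor p53 is kept low by Mdm2, a ubiquitin ligase that marks it for degradation, and by its relative Mdm4, which binds and represses it. After DNA damage and other stresses p53 accumulates and induces genes of cell cycle arrest, DNA repair and apoptosis, and it also induces Mdm2, which closes a feedback loop. CDK inhibitors act downstream or in parallel. The Cip/Kip proteins, made from Cdkn1a and Cdkn1b, bind cyclin-CDK complexes, while the INK4 proteins, made from Cdkn2a to Cdkn2d, bind the kinases Cdk4 and Cdk6. In mouse fibroblasts the Cdkn2a locus, which also encodes the Mdm2 inhibitor Arf, is one that cultured lines often lose or silence.

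The identity of the lines was checked first. Meltf, the melanotransferrin gene, had signals of 1519 in MTf 4 and 1885 in MTf 6, against 265 in vector 1 and 274 in vector 2, so the targeted gene stood with its labels. This was a log2 difference of 2.52 (SE 0.24), with a limma adjusted p of 0.0903 over all probe sets tested. Tk1, the thymidine kinase gene, gave 53.2 in MTf 4 and 206 in MTf 6, against 61.0 in vector 1 and 112 in vector 2. Of 10 fibroblast and mesenchymal genes, 8 were above the array median on all 4 arrays, among them Col1a2, Vim, Fn1 and S100a4, while Thy1 and Lum were below it on every array. The arrays had been scaled to 1 trimmed mean, and their median signals lay between 208.7 and 214.4. Shares of signals under 32 lay between 15.7% and 17.8%.

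Promoters are shown for Cdkn1a, Mdm2, Ccng1, Sesn1 and Gadd45a, 5 of the 11 listed genes with a window that held the p53 half-site, a short consensus of which a p53 response element holds a pair, because most listed genes are there as p53 targets. The windows with a match of Aen, Bax, Cdkn2d, Ei24, Polk and Trp53 are not shown, and the 5 were picked by hand as well-known targets. Sequences and positions are those of RefSeq on GRCm38.p6, from 250 bases before to 50 bases after an annotated start. Each is printed 5′ to 3′ on the strand of the gene, with matches to the p53 half-site in capitals.
Cdkn1a: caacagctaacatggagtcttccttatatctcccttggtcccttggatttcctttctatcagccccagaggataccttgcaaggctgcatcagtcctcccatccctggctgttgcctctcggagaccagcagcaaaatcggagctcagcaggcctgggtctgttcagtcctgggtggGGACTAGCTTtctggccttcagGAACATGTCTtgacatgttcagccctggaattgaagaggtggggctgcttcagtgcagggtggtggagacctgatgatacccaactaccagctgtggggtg
Mdm2: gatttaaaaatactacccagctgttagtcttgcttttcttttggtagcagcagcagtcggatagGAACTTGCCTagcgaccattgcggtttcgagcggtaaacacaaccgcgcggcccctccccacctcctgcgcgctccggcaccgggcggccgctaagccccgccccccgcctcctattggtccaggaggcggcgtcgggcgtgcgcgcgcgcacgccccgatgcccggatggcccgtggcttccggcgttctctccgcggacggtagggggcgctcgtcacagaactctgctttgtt
Ccng1: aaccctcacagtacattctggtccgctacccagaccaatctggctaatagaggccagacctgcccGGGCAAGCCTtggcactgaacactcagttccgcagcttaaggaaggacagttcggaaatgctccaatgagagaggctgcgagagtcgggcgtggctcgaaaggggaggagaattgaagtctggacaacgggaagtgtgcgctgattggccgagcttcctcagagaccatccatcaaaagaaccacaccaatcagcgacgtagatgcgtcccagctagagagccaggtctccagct
Sesn1: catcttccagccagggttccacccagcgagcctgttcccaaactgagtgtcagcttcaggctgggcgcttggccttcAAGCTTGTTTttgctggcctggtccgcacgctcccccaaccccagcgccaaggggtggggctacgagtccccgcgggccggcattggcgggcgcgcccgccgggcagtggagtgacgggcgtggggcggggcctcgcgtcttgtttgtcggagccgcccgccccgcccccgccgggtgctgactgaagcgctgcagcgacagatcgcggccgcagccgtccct
Gadd45a: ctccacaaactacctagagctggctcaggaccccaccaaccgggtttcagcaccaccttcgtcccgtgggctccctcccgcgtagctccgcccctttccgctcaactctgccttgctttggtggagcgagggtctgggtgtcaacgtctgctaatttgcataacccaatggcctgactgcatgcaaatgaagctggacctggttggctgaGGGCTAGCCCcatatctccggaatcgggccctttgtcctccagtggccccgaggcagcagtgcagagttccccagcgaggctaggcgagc

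The window of Cdkn1a lies at chr17:29090729-29091028 on the plus strand and belongs to the upstream of 2 annotated starts. That of Mdm2 lies at chr10:117710709-117711008 (minus strand), that of Ccng1 at chr11:40755237-40755536 (minus strand), that of Sesn1, the downstream of 2 annotated starts, at chr10:41887189-41887488 (plus strand) and that of Gadd45a at chr6:67037358-67037657 (minus strand). The Cdkn1a window held 2 matches, which begin 73 and 51 bases before the start, and each of the other windows shown held 1. The windows at the other start of Cdkn1a and of Sesn1 are not shown and held no match. Matches were searched on both strands, and the consensus reads the same on either. Of 34 promoter windows of 25 listed genes, 12 windows held a match (35.3%), against 2745 of all 32851 promoters (8.36%). Such sites are one reason why genes are called p53 targets, so the share is a description of the list. The search used letters alone, measured no binding and left out all sequence outside the windows. Whether p53 acts through the marked stretches was not tested. The 9 tested genes with a half-site had a median log2 difference between clones and vector lines of 0.010, with single genes between -0.16 and 0.58. The 11 tested genes with a window and no match had a median of 0.062, between -0.12 and 0.76.

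Most of the axis gave signal in these cells, and 2 INK4 genes and 3 genes of apoptosis did not rise above the array median on any array. Detection calls were not used here, so the median signal of each array stood in as the level. By that measure 22 of 28 genes were above the level on all 4 arrays by at least 1 probe set, where 52.6% of all genes on the array were, 5 were below it on every array by every probe set, and Tnfrsf10b was mixed. The 5 were Cdkn2a, Cdkn2b, Fas, Perp and Pmaip1. Probe sets differ in how well they bind, so a low signal does not show that a transcript is absent. As a yardstick, 55 probe sets of 30 genes of other tissues, such as Alb and Ins1, had median signals of 71.4 in MTf 4 and 59.6 in MTf 6, against 79.8 in vector 1 and 57.0 in vector 2. Their 90th percentiles were 310, 326, 348 and 272 in the same order of lines, so some of them also lay above the level. By the same rule 4 of the 30 genes, Cela1, Gfap, Pomc and Tnnt2, were above it on all 4 arrays, and 16 were below it on every array.

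**Figure D1:**
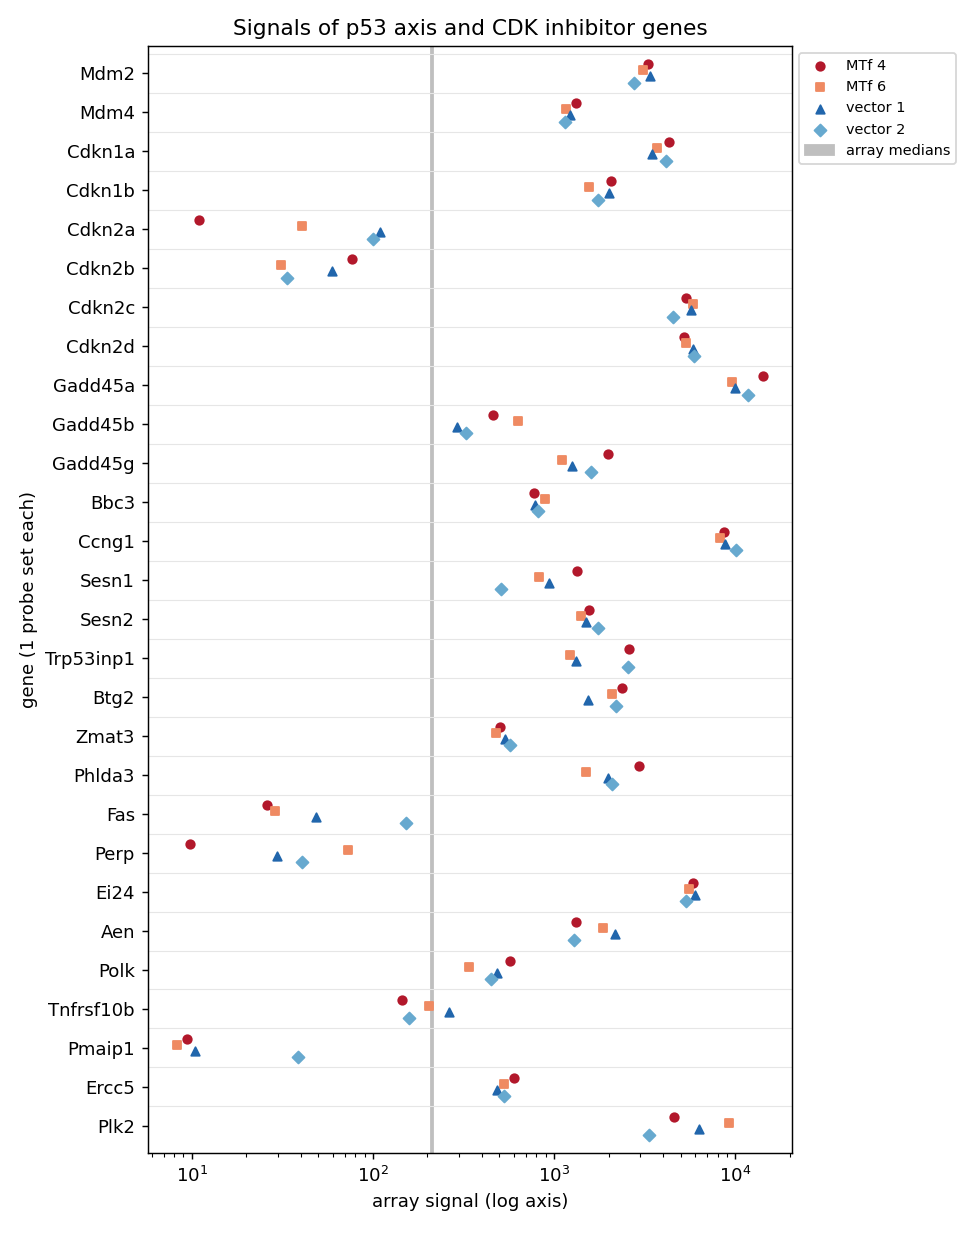
Array signal (log axis) of 28 genes in each of the 4 lines, 1 probe set per gene, with MTf 4 and MTf 6 in red tones and vector 1 and vector 2 in blue. The grey band spans the median signals of the 4 arrays, 208.7 to 214.4, and 22 genes lie to its right on all arrays while Cdkn2a, Cdkn2b, Fas, Perp and Pmaip1 lie to its left on all.

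No member differed between the clones and the vector lines past the threshold. The test was limma on log2(signal + 32), so that each log2 difference is on that scale and understates the change of dim probe sets, with Benjamini-Hochberg adjustment over the 22519 probe sets whose mean reached the median of all probe sets. Of the 52 member probe sets, 40 of 22 genes were tested. With limma 0 of the 40 passed an adjusted p of 0.05, where 0.00444% of all tested probe sets did. Meltf, the transfected gene, did not pass either, with a limma adjusted p of 0.0903. The lack of calls among the members therefore does not show that they were unchanged. At an unadjusted 0.05 there were 2 of 40, one of Mdm4 and one of Gadd45b, against 1.9% of all tested probe sets, and that of Mdm4 had reached the filter through the vector lines alone. This was so for 2 of the 40, the other being a dimmer probe set of Gadd45b, and both are given with no test. By limma the adjusted p of every member was 1.00. Signals of both clones lay above those of both vector lines for 2 member probe sets (12.2% of all tested) and below for 8 (13.6% of all tested), together 10 of 40 against 25.8% of all. The 8 include the 2 that reached the filter through the vector lines alone. For those 2 the filter itself favours lower clones, so their order is a description. By the tested probe set with the highest mean, 14 genes were higher and 8 lower in the clones, with single differences between -0.16 and 0.76 (log2). The median was 0.060, where that of all 10682 genes tested was -0.0055. Without MTf 4 it was -0.033. The median absolute difference was 0.10 for the members and 0.13 for all genes, and 18 of the 22 genes differed by less than 0.25.

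**Figure D2:**
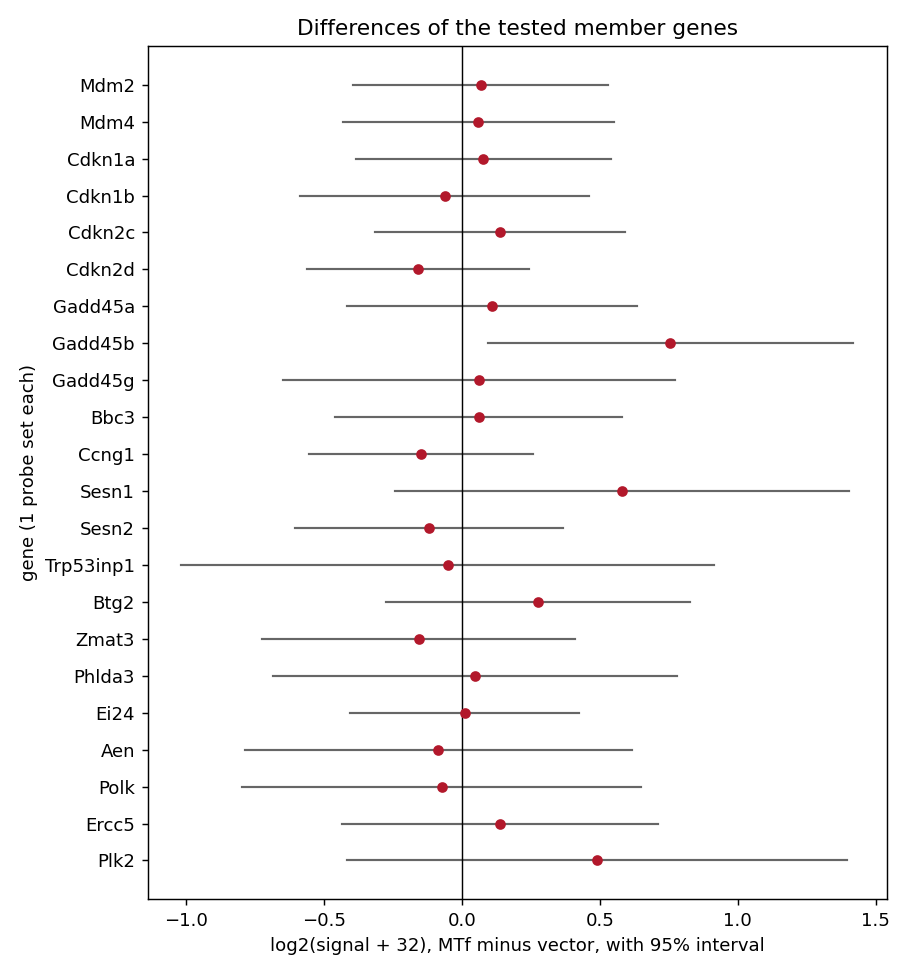
Difference in log2(signal + 32) between the MTf clones and the vector lines for 22 genes, 1 probe set each, with points for the limma estimate and lines for its 95% interval. All intervals cross 0 except that of Gadd45b (0.093 to 1.42), whose adjusted p was 1.00.

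For the regulators of p53, most probe sets had group differences near 0. Mdm2 had signals of 3304 in MTf 4 and 3112 in MTf 6, against 3385 in vector 1 and 2763 in vector 2, so the groups overlapped. The log2 difference was 0.068 (95% interval -0.40 to 0.53). A second Mdm2 probe set differed by 0.052, and the third, below the level on every array, by -0.42 with no test. Mdm2 lies on chromosome 10, whose 512 tested genes had a median of -0.33 in vector 2 relative to the mean of the other 3 arrays, and Mdm2 was at -0.24 by the same measure. The part of this shift of chromosome 10 in the Mdm2 values was not tested.

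Mdm4 had 4 tested probe sets that did not agree in sign. The brightest had signals of 1327 in MTf 4 and 1162 in MTf 6, against 1225 in vector 1 and 1157 in vector 2, a log2 difference of 0.060 (95% interval -0.43 to 0.55). A dimmer one had signals of 141 in MTf 4 and 109 in MTf 6, against 268 in vector 1 and 434 in vector 2. Here both clones were below the array median and both vector lines above it, so that it was in the test only through the vector lines. Its log2 difference of -1.26 is therefore a description. The remaining probe sets differed by -0.037 and 0.26, so the low signal of this probe set in the clones was not shared by the others of the same gene. Which Mdm4 transcripts these probe sets detect was not tested.

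**Figure D3:**
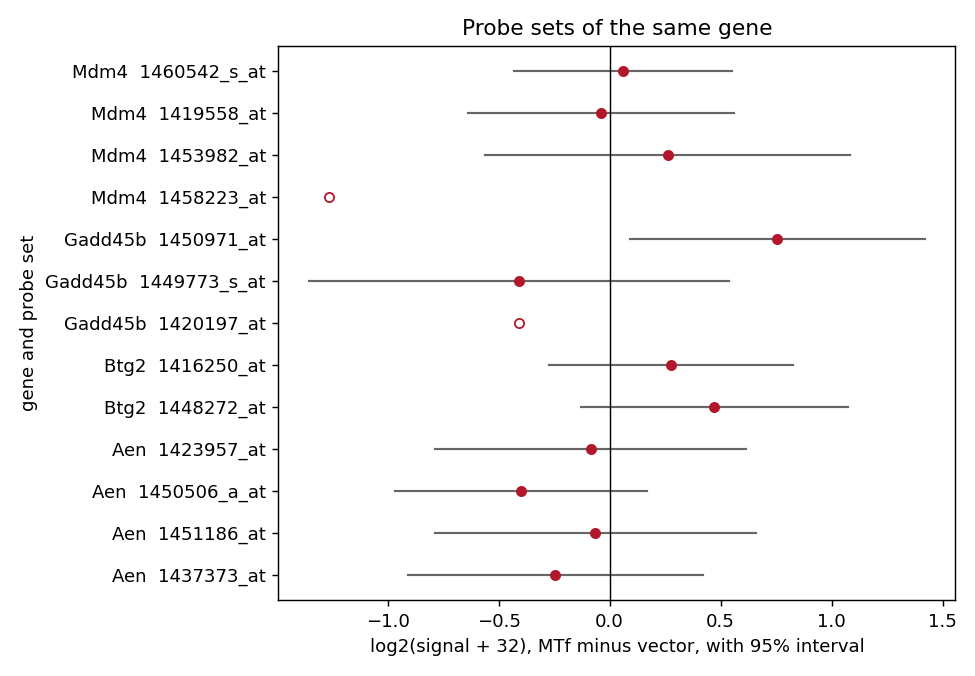
Difference in log2(signal + 32) between the MTf clones and the vector lines for each tested probe set of Mdm4, Gadd45b, Btg2 and Aen, with points for the limma estimate and lines for its 95% interval. Open points without a line are probe sets that reached the filter through the vector lines alone. Mdm4 spans -1.26 to 0.26 and Gadd45b -0.41 to 0.76, while those of Btg2 lie above 0 and those of Aen below 0.

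Both Cip/Kip genes on the list gave strong signal in all lines by their brightest probe sets. Cdkn1a, which encodes the p21 protein and is the best known arrest gene under p53, read 4339 in MTf 4 and 3713 in MTf 6, against 3482 in vector 1 and 4148 in vector 2. The groups interleaved, and the log2 difference was 0.078 (95% interval -0.39 to 0.54). By its other probe set Cdkn1a gave 565 in MTf 4 and 400 in MTf 6, against 575 in vector 1 and 656 in vector 2, a difference of -0.35 (95% interval -0.98 to 0.29) in the opposite sense. Cdkn1b, which encodes p27 and holds cells in quiescence, had signals of 2070 in MTf 4 and 1568 in MTf 6, against 2016 in vector 1 and 1759 in vector 2. Its groups overlapped too, with a log2 difference of -0.062 (95% interval -0.59 to 0.46). A second Cdkn1b probe set, too dim for the test, gave 163 in MTf 4 and 266 in MTf 6, against 189 in vector 1 and 176 in vector 2, and passed the array median in MTf 6 alone.

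The INK4 genes fell into a bright and a dim pair. Cdkn2c, which encodes p18, read 5352 in MTf 4 and 5864 in MTf 6, against 5685 in vector 1 and 4556 in vector 2, a log2 difference of 0.14 (95% interval -0.32 to 0.59). Cdkn2c lies on chromosome 4, whose 641 tested genes had a median of 0.29 in MTf 6 relative to the other 3 arrays, and Cdkn2c was at 0.18 by that measure. Cdkn2d, which encodes the p19 protein of the INK4 kind, gave 5198 in MTf 4 and 5352 in MTf 6, against 5868 in vector 1 and 5921 in vector 2. Both clones were below both vector lines and the lines of a group lay close together. The log2 difference was -0.16 (95% interval -0.56 to 0.24), or 0.895-fold, and did not pass.

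Cdkn2a and Cdkn2b, neighbours on chromosome 4, were dim in all 4 lines. The single probe set of Cdkn2a, the gene of p16 and Arf, had signals of 11.0 in MTf 4 and 40.7 in MTf 6, against 110 in vector 1 and 100.4 in vector 2. Both clones thus read lower than both vector lines, but all 4 signals were under the array median. In the fit with no filter on dim probe sets its log2 difference was -1.29 (95% interval -2.43 to -0.16), with a limma adjusted p of 1.00. Cdkn2b, the gene of p15, read 76.3 in MTf 4 and 31.3 in MTf 6, against 59.3 in vector 1 and 33.4 in vector 2, with no order between the groups. Without the filter its log2 difference was 0.10 (95% interval -1.04 to 1.24). Of the nearest protein-coding genes on both sides, Dmrta1 read 27.5 in MTf 4 and 72.7 in MTf 6, against 81.9 in vector 1 and 25.7 in vector 2. Mtap, a gene of methionine salvage, reached 524 in MTf 4 and 367 in MTf 6, against 395 in vector 1 and 535 in vector 2, by the only one of its 4 probe sets above the filter.

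Genes of growth arrest and stress were all above the level, and 5 of the 7 were higher and 2 lower in the clones, with 0 past the threshold and a median log2 difference of 0.11. Gadd45b, of the family of small stress proteins that bind p21 and stress kinases, had the largest difference of the tested genes. Its probe set with the highest mean gave 463 in MTf 4 and 635 in MTf 6, against 291 in vector 1 and 326 in vector 2, and the groups did not overlap. The log2 difference was 0.76 (95% interval 0.093 to 1.42), or 1.69-fold, with an unadjusted p of 0.0305 and an adjusted p of 1.00 from limma. With 1 array left out in turn it lay between 0.54 and 0.97. The other Gadd45b probe sets moved the opposite way, each with a difference of -0.41. One of these had signals of 185 in MTf 4 and 452 in MTf 6, against 385 in vector 1 and 411 in vector 2, so that MTf 4 alone was low. The other had 206 in MTf 4 and 151 in MTf 6, against 232 in vector 1 and 259 in vector 2, all close to the array median or below it. That probe set was in the test only through the vector lines, so its difference is a description. Gadd45b also lies on chromosome 10, and by the probe set with the highest mean it stood at -0.41 in vector 2 relative to the other 3 arrays. By the other probe sets it stood at 0.33 and 0.37 there, against the chromosome median of -0.33.

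Gadd45a and Gadd45g, the other members of that family, were highest in MTf 4 and lowest in MTf 6, with the vector lines between them. Gadd45a read 14237 in MTf 4 and 9637 in MTf 6, against 9977 in vector 1 and 11810 in vector 2. Gadd45g gave 1992 in MTf 4 and 1109 in MTf 6, against 1262 in vector 1 and 1606 in vector 2, a log2 difference of 0.062 (95% interval -0.65 to 0.77). For both genes the spread between the clones was larger than the difference between the groups.

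Btg2, an antiproliferative gene that p53 induces, had signals of 2362 in MTf 4 and 2096 in MTf 6, against 1534 in vector 1 and 2189 in vector 2, with a log2 difference of 0.28 (95% interval -0.27 to 0.83). Its second probe set read 1279 in MTf 4 and 876 in MTf 6, against 804 in vector 1 and 710 in vector 2, where the clones lay above the vector lines by 0.47 (95% interval -0.13 to 1.07). Both Btg2 probe sets thus had a higher mean in the clones, with overlapping groups for the first, and neither passed. The difference of the first was 0.024 without vector 1 and 0.53 without vector 2. Ccng1, which encodes cyclin G1, gave 8664 in MTf 4 and 8255 in MTf 6, against 8748 in vector 1 and 10059 in vector 2. Both clones were below both vector lines by a log2 difference of -0.15 (95% interval -0.56 to 0.26), which was -0.049 without vector 2 and -0.25 without vector 1, while its other probe sets gave 0.055 and -0.14. Zmat3, an RNA-binding zinc finger protein, had signals of 505 in MTf 4 and 480 in MTf 6, against 535 in vector 1 and 571 in vector 2. This was a difference of -0.16 (95% interval -0.72 to 0.41), again with both clones below.

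Plk2, a polo-like kinase that acts in centriole duplication, had the widest range over the 4 lines of the 22 probe sets that stand for the tested genes. It read 4577 in MTf 4 and 9189 in MTf 6, against 6318 in vector 1 and 3362 in vector 2. In signal + 32, the measure of the folds given among these genes, the clones differed 2.00-fold from each other and the vector lines 1.87-fold, so the log2 difference of 0.49 between the groups (95% interval -0.42 to 1.39) lay within the spread of the lines. A second Plk2 probe set, below the array median on every array and not tested, gave 33.8 in MTf 4 and 80.5 in MTf 6, against 22.2 in vector 1 and 17.2 in vector 2.

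Among stress genes that act on metabolism and on p53 itself, Sesn1 and Trp53inp1 varied between the lines of a group. Sesn1 encodes a sestrin, which restrains the growth kinase mTORC1 when nutrients or redox balance fail. Its probe set with the highest mean gave 1346 in MTf 4 and 823 in MTf 6, against 936 in vector 1 and 511 in vector 2. The other tested ones were at 638 and 495 in MTf 4 and at 512 and 297 in MTf 6, against 688 and 401 in vector 1 and 326 and 193 in vector 2. All of its probe sets, the untested one included, were lowest in vector 2. The log2 difference between the groups was 0.58 (95% interval -0.24 to 1.40). It was 0.16 without vector 2, 0.24 without MTf 4, 0.93 without MTf 6 and 1.00 without vector 1. Sesn1 lies on chromosome 10, and in vector 2 it stood at -0.94 relative to the other 3 arrays, lower than the median of that chromosome by -0.61.

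Sesn2, of the same family, had signals of 1558 in MTf 4 and 1415 in MTf 6, against 1498 in vector 1 and 1744 in vector 2, a log2 difference of -0.12 (95% interval -0.61 to 0.37), which was -0.013 without vector 2. Its second probe set gave 0.11. Trp53inp1, a nuclear protein that promotes the phosphorylation of p53, read 2600 in MTf 4 and 1221 in MTf 6, against 1330 in vector 1 and 2566 in vector 2. Each group thus held 1 high and 1 low line, and the difference between the groups was -0.051 (95% interval -1.02 to 0.91). The second probe set of Trp53inp1 gave 665 in MTf 4 and 530 in MTf 6, against 300.0 in vector 1 and 629 in vector 2, so that vector 1 alone was low there. Trp53inp1 and Sesn2 lie on chromosome 4, and the first probe set of Trp53inp1 was lower in MTf 6 by -0.75 relative to the other 3 arrays although the median of that chromosome was higher by 0.29.

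**Figure D4:**
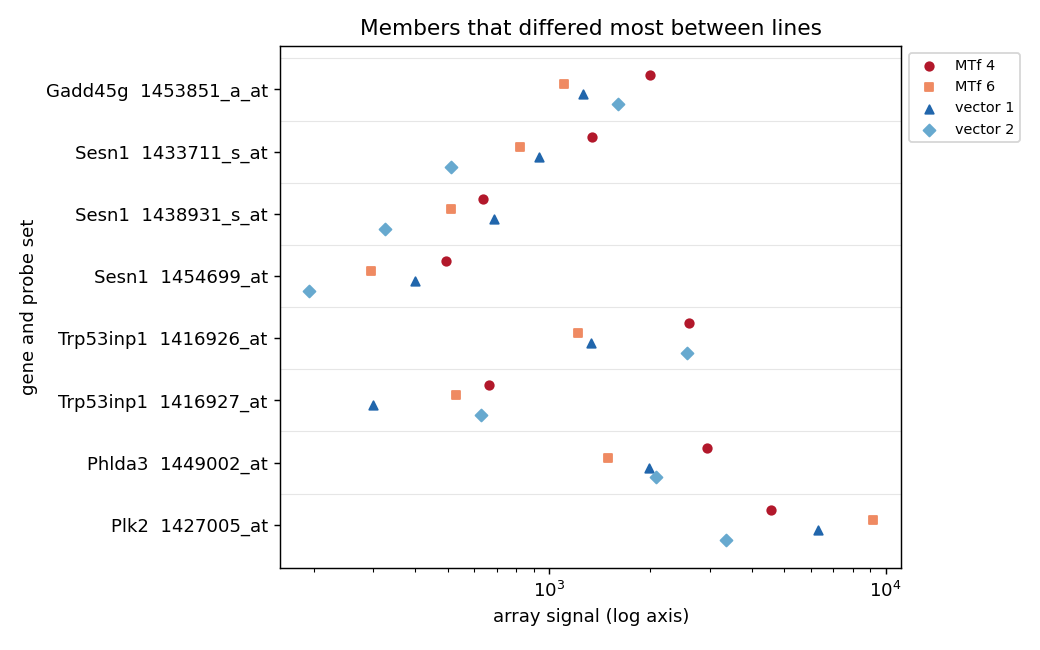
Array signal (log axis) in each of the 4 lines for the tested probe sets of Gadd45g, Sesn1, Trp53inp1, Phlda3 and Plk2. Vector 2 is lowest for all 3 tested Sesn1 probe sets, MTf 4 is highest for Gadd45g and Phlda3, and MTf 6 is highest for Plk2.

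Genes of apoptosis were split by level. The 4 tested ones, Bbc3, Ei24, Aen and Phlda3, had log2 differences between -0.085 and 0.060, and 0 passed with limma. Bbc3, the gene of the BH3-only protein PUMA, had signals of 779 in MTf 4 and 890 in MTf 6, against 781 in vector 1 and 814 in vector 2. Ei24, of the endoplasmic reticulum, read 5886 in MTf 4 and 5577 in MTf 6, against 6009 in vector 1 and 5385 in vector 2, a narrow range in all lines. Aen, a nuclease that acts in apoptosis, gave 1324 in MTf 4 and 1863 in MTf 6, against 2163 in vector 1 and 1286 in vector 2. All 4 of its probe sets had a lower mean in the clones, by differences from -0.40 to -0.064. This rested on single arrays for 2 of them, since the brightest turned to 0.16 without MTf 4 and 0.28 without vector 1, and another to 0.17 and 0.056 in these fits. Phlda3, which competes with the kinase Akt for membrane lipids, had signals of 2943 in MTf 4 and 1495 in MTf 6, against 1984 in vector 1 and 2077 in vector 2. The clones lay on opposite sides of the vector lines, 1.95-fold apart, while the vector lines were 1.05-fold apart. The log2 difference of Phlda3 was 0.048 (95% interval -0.68 to 0.78).

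Receptors and other effectors of apoptosis read low. Fas, the death receptor, read 26.1 in MTf 4 and 28.7 in MTf 6, against 48.7 in vector 1 and 152.5 in vector 2. It was lower in both clones, but the vector lines differed 2.29-fold from each other in signal + 32, and in the fit without the filter the log2 difference was -1.04 (95% interval -2.31 to 0.23). Pmaip1, the gene of the BH3-only protein NOXA, gave 9.40 in MTf 4 and 8.30 in MTf 6, against 10.4 in vector 1 and 38.6 in vector 2. Perp, a membrane protein of epithelial junctions, had signals of 9.80 in MTf 4 and 72.7 in MTf 6, against 29.7 in vector 1 and 40.8 in vector 2. Tnfrsf10b, the receptor for the death ligand TRAIL, read 146 in MTf 4 and 204 in MTf 6, against 264 in vector 1 and 159 in vector 2 by its brighter probe set, which passed the array median in vector 1 alone.

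The 2 genes of DNA repair did not pass. Ercc5, the endonuclease XPG of nucleotide excision repair, gave 598 in MTf 4 and 528 in MTf 6, against 486 in vector 1 and 531 in vector 2, with a log2 difference of 0.14 (95% interval -0.43 to 0.71). Polk, a polymerase that copies past damaged bases, had signals of 571 in MTf 4 and 340.0 in MTf 6, against 485 in vector 1 and 448 in vector 2. By this probe set the clones bracketed the vector lines, with a log2 difference of -0.073. A second tested Polk probe set gave 0.042, with clones and vector lines interleaved.

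Several members differed as much within a group as between the groups. Past 1 on the log2 scale, MTf 4 and MTf 6 differed for 3 of the 40 tested member probe sets, where 4.76% of all tested probe sets did. These were of Plk2, Trp53inp1 and Gadd45b. The vector lines differed that far for 1, of Sesn1, where 3.33% of all did. With 1 array per line, none of this could be checked in replicates. By their brightest tested probe set, 11 of the 22 genes were highest in MTf 4 and 4 in MTf 6, against 3 in vector 1 and 4 in vector 2. The lowest signal was in MTf 4 for 2 genes and in MTf 6 for 9, against 4 in vector 1 and 7 in vector 2. Shares of all genes for these counts are not given here, so the counts describe the members alone. Taken over the 22 genes, the median deviation from the 4-array mean was 0.14 for MTf 4 and -0.061 for MTf 6, against -0.0078 for vector 1 and -0.0057 for vector 2. Over all genes tested it was 0.026 for MTf 4 and -0.021 for MTf 6, against -0.010 for vector 1 and 0.020 for vector 2. Where a gene had several tested probe sets, which was so for 11 genes, these shared the sign of the group difference in 4, namely Mdm2, Sesn1, Btg2 and Aen.

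Other genes of the pathway gave no call either. Of a further list of 45 regulators, kinases and targets, 39 were tested, 18 of them higher and 21 lower in the clones, with a median log2 difference of -0.010. By limma 0 passed, and 0 were past an unadjusted 0.05. Each gene stands here by its tested probe set with the highest mean, and other probe sets of Ppp1r13l and Chek1 had smaller p than those named. Among the standing ones, Trp53bp2, which directs p53 to genes of apoptosis, had the smallest p. It read 975 in MTf 4 and 977 in MTf 6, against 842 in vector 1 and 675 in vector 2. The difference was 0.36 (95% interval -0.18 to 0.89), while its other tested probe set gave 0.045. Gtse1, which restrains p53 in G2, had a difference of -0.32 (95% interval -0.86 to 0.22). Chek1, the checkpoint kinase, had -0.41 (95% interval -1.18 to 0.37), while its other tested probe sets gave -0.65 and 0.028. By the first it read 1389 in MTf 4 and 2486 in MTf 6, against 3113 in vector 1 and 1966 in vector 2. Dram1, an autophagy gene under p53, had a difference of 0.37 (95% interval -0.36 to 1.10).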

How the data were processed

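Total RNA of 4 lines, each on 1 Affymetrix Mouse Genome 430 2.0 Array, gave deposited intensity values on a linear scale, 1 signal per probe set, made by the authors with GCOS 1.3 per the submitters' processing notes. Which settings it ran with is not given in the sources used here. The arrays shared 1 trimmed mean (1000.01), so signals were used as deposited. Groups came from the labels.

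Signals were converted to log2(signal + 32). Of 45037 non-control probe sets, those with a mean at or above the median were tested with limma 3.58.1 in R 4.3.3 (eBayes with a trend), MTf minus vector, and adjusted by Benjamini-Hochberg over all 22519. The fit was tested on simulated data whose spread was drawn from limma's own model. Shifts shared by the genes of a chromosome were not simulated. An exact permutation test of 2 against 2 arrays cannot go below a two-sided p of 0.333, and the number of arrays limits precision.

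A gene was represented by its tested probe set with the highest mean. Values of all lines and the fit are given for the regulators and CDK inhibitors, the 8 other members with the largest difference and the 6 with the largest range, by the fit with no filter where dim, and signals for the rest. For the further pathway list, the 4 genes with the smallest p are named. Chromosomes came from a GRCm38.p6 gene table, and intervals are 95% intervals of the fit. The members and lists were chosen with earlier results of these data known. Alternatives covered the offset, the filter, quantile normalization, the trend, the level of detection and each array left out.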

Additional observations from a re-analysis of the deposited data

How the results depend on the processing

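No paired analysis was possible because the clones are numbered 4 and 6 and the vector lines 1 and 2, so the groups share no number. Under every alternative that left out no array, 0 member probe sets passed, and the median of the members lay between 0.029 and 0.061. With 1 array left out that median depended on the array. It was 0.14 without MTf 6, 0.028 without vector 1 and 0.020 without vector 2, and turned to -0.033 without MTf 4. The count of genes above the detection level lay between 20 and 23 against 22. Over the whole array, the single call became 0 with no filter, 0 with the filter at the 75th percentile and 0 without the trend, where the cause was not tested, and with 1 array left out the count lay between 2 and 21 (2 without vector 1, 3 without vector 2, 21 without MTf 4, 7 without MTf 6). For the 22 tested genes, 5 of them added after seeing the data, the sign of the difference held in all 126 fits that left out no array and turned in 21 of 88 that left out 1. The filter and the trend cannot change the difference of a probe set. Among the 126, only fits with another offset or with quantile normalization could thus turn a sign. With 1 array left out, the log2 difference of Mdm2 lay between -0.078 (without vector 2) and 0.21. That of Mdm4 lay between -0.033 (without MTf 4) and 0.15, of Cdkn1a between -0.047 (without vector 1; -0.033 without MTf 4) and 0.20, and of Cdkn1b between -0.26 and 0.13 (without MTf 6; 0.035 without vector 1). That of Cdkn2c lay between -0.021 (without vector 2) and 0.30, of Gadd45g between -0.35 (without MTf 4; -0.11 without vector 1) and 0.48, and of Trp53inp1 between -0.59 and 0.48 (without MTf 6; 0.41 without vector 2). That of Phlda3 lay between -0.43 (without MTf 4) and 0.53, and of Plk2 between -0.010 (without MTf 6) and 0.99. Among the added genes, that of Gadd45a lay between -0.17 (without MTf 4; -0.012 without vector 1) and 0.39, of Bbc3 between -0.032 (without MTf 6) and 0.15, of Ei24 between -0.068 (without vector 2; -0.028 without MTf 4) and 0.089, of Aen between -0.45 and 0.28 (without vector 1; 0.16 without MTf 4) and of Polk between -0.42 and 0.28 (without MTf 6). With the sign kept, Btg2 lay between 0.024 and 0.53, Ccng1 between -0.25 and -0.049, Sesn2 between -0.23 and -0.013 and Ercc5 between 0.054 and 0.22. The lowest adjusted p among these fits was 0.75. The filter at the 75th percentile left no value for 6 of the genes. The dim Mdm4 probe set of the report passed the filter with either clone left out, with differences of -1.41 and -1.12, but not with either vector line left out. Fits with 1 array left out hold a lone array in a group, which is assumed to vary like the rest.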
